A study of Mus musculus with 2 samples.

Results

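Voltage-gated calcium and sodium channel genes were examined for EGR1 binding sites in mouse frontal cortex. The 37 genes were taken by name, as 18 genes for pore-forming subunits and 19 for auxiliary subunits, among 21938 protein-coding genes. A gene counted as having an EGR1 peak when the centre of a deposited peak lay in its gene body or within 10 kb of one of its transcription start sites (TSSs). By this rule 27 of the 37 genes had a peak, and 60 peaks of the 12014 in the list lay at them.

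EGR1 ChIP-seq had been done on formaldehyde-fixed frontal cortex from C57BL6N/129SvEv F1 hybrid male mice of 6 weeks, with tissue of several mice pooled for each immunoprecipitation. The file analysed was 1 list of peaks, merged by the authors from 2 replicates, in which each peak has its mm10 position and an irreproducible discovery rate (IDR). The IDR is the estimated rate at which peaks ranked as high would fail to repeat between replicates, so a low value marks a more repeatable peak. The input DNA sample of the same strain, tissue and age was not analysed here, and the list has no values per replicate, so shares are given with 95% Wilson intervals that cover counting over genes or peaks only and no difference was tested.

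EGR1 is a zinc-finger transcription factor made by neurons in response to activity, and it binds GC-rich sites of the form GCGTGGGCG or GCGGGGGCG. Voltage-gated calcium channels let calcium into neurons when the membrane depolarises, which sets off transmitter release, bursting and transcription, and voltage-gated sodium channels start and carry the action potential. In both families a large α subunit forms the pore, while auxiliary subunits steer its trafficking and gating. The tissue holds neurons and glia, and a peak in such a list cannot be assigned to one of them, nor does it say whether the gene is expressed.

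The sequences of 5 member peaks that hold an exact match to either 9-bp word are printed first, because these are the peaks in which an EGR1 site can be read directly. They are 4 of the 6 such peaks with the lowest IDR and the Scn8a promoter peak, which was added after its values were seen, and peaks with more than 30 bases of UTR are not printed. Each is the plus strand of mm10 from 5′ to 3′, with the motif in capitals, so CGCCCCCGC is GCGGGGGCG on the minus strand. Cacna1h is shown for the central 300 bases of a 365-bp peak.
Cacna1b, chr2:24763164-24763406: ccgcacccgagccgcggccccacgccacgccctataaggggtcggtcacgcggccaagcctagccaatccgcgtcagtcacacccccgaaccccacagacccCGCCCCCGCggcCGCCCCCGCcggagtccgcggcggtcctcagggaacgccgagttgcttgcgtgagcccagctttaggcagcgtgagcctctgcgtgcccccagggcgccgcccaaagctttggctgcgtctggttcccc
Cacna1h, chr17:25434084-25434383: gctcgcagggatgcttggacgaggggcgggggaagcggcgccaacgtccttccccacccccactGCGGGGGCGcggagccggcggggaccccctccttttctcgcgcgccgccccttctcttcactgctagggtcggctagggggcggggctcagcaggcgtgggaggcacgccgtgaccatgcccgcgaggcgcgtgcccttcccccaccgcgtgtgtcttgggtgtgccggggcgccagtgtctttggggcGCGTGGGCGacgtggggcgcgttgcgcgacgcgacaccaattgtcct
Cacna1e, chr1:154726972-154727138: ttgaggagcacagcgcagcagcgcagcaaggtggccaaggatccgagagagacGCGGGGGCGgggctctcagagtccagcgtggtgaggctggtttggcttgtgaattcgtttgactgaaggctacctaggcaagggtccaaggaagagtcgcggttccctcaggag
Scn8a, chr15:100870487-100870644: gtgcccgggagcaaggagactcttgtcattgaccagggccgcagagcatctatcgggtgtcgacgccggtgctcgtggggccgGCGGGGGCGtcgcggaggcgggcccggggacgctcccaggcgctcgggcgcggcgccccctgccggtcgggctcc
Cacna1d, chr14:30479550-30479734: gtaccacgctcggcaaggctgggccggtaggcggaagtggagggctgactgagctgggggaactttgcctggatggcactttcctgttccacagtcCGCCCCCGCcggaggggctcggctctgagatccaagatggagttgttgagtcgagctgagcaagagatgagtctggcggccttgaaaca

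The lowest-IDR peaks of the β subunits of calcium channels and of sodium channels are shown for contrast, since they hold neither 9-bp word, nor a word that differs from one of them at 1 base, and so have no capitals.
Cacnb1, chr11:98019279-98019542: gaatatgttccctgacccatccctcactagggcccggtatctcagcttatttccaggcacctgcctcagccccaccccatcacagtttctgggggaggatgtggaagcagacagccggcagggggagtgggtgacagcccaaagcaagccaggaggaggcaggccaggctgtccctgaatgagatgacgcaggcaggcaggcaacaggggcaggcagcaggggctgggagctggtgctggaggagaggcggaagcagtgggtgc
Scn2b, chr9:45122209-45122472: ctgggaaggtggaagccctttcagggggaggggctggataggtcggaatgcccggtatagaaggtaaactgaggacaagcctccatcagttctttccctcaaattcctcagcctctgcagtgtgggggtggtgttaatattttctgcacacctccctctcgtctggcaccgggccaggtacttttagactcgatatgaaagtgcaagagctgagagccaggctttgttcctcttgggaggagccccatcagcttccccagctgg

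Of the 37 channel genes, 73.0% had a peak (27 genes, Wilson interval 57.0 to 84.6%), against 39.5% of the 21901 other protein-coding genes (38.9 to 40.2%). Within 2 kb of a TSS the share was 45.9% (17 genes, 31.0 to 61.6%) for the channel genes and 29.6% for the other genes. Auxiliary subunit genes had a peak in 16 of 19 cases (84.2%, 62.4 to 94.5%) and pore genes in 11 of 18 (61.1%, 38.6 to 79.7%), intervals that overlap. This order turned at an IDR of 0.001 or less, where 9 of 19 auxiliary genes (47.4%) and 11 of 18 pore genes (61.1%) had a peak, and at an IDR of 0.01 or less the shares were 63.2% and 61.1%. Calcium channel genes had one in 23 of 26 cases (88.5%, 71.0 to 96.0%), whereas sodium channel genes had one in 4 of 11 (36.4%, 15.2 to 64.6%), a share whose interval includes the 39.5% of other genes.

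The channel genes are long, and a longer gene gives a larger searched region, but whether length bears on their share was not tested. Their median length was 110.5 kb, compared with 17.4 kb for the other protein-coding genes. Among genes over 100 kb, 13 of 19 members had a peak (68.4%, 46.0 to 84.6%) and 61.5% of the other genes did (59.6 to 63.4%), so in this length class the share of the members was close to the background. Among genes of 20 to 100 kb the shares were 69.2% (9 of 13) and 45.2%, and under 20 kb all 5 members had a peak (Cacnb3, Cacng1, Cacng6, Scn2b and Scn4b) against 31.3% of other genes. At an IDR of 0.001 or less, 2 of these 5 short genes had a peak, against 22.8% of other genes of that length. The density of peaks over all regions searched was 0.946 per 100 kb at the members and 0.993 per 100 kb at the other genes. These pooled values mix length classes, and in each class the density was higher at the members, without a test. It was 4.94 at members and 1.94 at other genes under 20 kb, 2.41 and 1.21 at 20 to 100 kb, and 0.644 and 0.460 over 100 kb. Within the members, length and number of peaks were weakly related (Spearman's rho 0.19 over 37 genes), about as over the other genes (rho 0.24), where a longer gene also has a larger searched region.

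**Figure D1:**
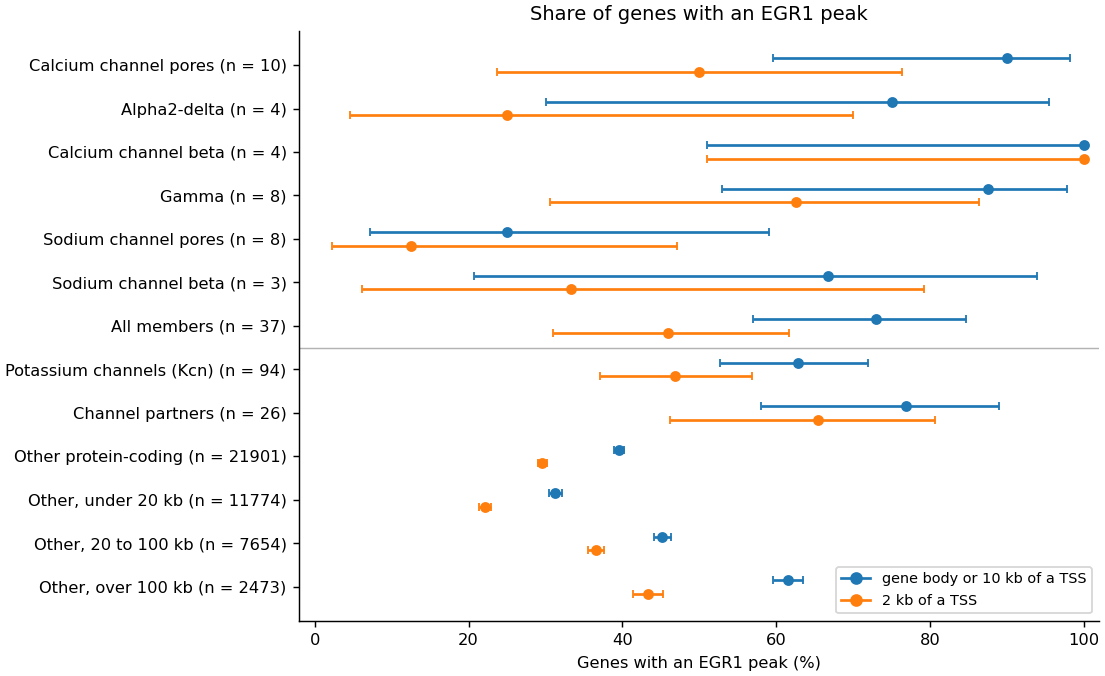
Share of genes with an EGR1 peak, in percent, for the channel subunit groups, potassium channel genes, channel partner genes and other protein-coding genes; blue points count the gene body or 10 kb of a TSS, orange points 2 kb of a TSS, and bars are 95% Wilson intervals. Calcium channel pores sit at 90% and sodium channel pores at 25%, and the other protein-coding genes rise from 31.3% under 20 kb to 61.5% over 100 kb.

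The calcium channel pore genes had a peak in 9 of 10 cases (90%, 59.6 to 98.2%), with 26 peaks in all. Cacna1b, which encodes the N-type channel of presynaptic terminals, had the lowest IDR of all member peaks. That peak (chr2:24763164-24763406, 243 bp) was centred 133 bp upstream of the TSS, had an IDR of 5.71e-09 and ranked 12 among the 12014 peaks. It held 29 CpGs, a GC content of 72.8% and 2 motif words whose centres lay 15 and 3 bp from the centre of the peak, as the capitals in its sequence show. The remaining Cacna1b peaks had far higher IDRs, 0.00412 for an intronic peak 239 bp from the start of a shorter transcript (chr2:24685502-24685756) and 0.00123 for one 2453 bp from another such start.

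Cacna1a, the P/Q-type pore that drives release at most central synapses, had 4 peaks and no exact motif in any of them. One lay 819 bp upstream of an internal start (chr8:84414413-84414676, IDR 7.55e-05, GC 72.3%, 27 CpGs). Another, in intron 20 or 21 depending on the transcript, had the lowest IDR of the gene (chr8:84567736-84567985, 7.87e-06) and lay 3936 bp from the nearest start. Its other peaks had IDRs of 0.00283 and 0.0152. Cacna1e, the R-type pore, had 5 intronic peaks in a gene of 494 kb. The one nearest to a start, 699 bp upstream of it in intron 1 (chr1:154726972-154727138, 167 bp), had an IDR of 3.87e-07 and 1 motif word, and the other 4 had IDRs from 0.000489 to 0.0135 and no motif. P/Q, N and R-type pores thus all had a peak within 2 kb of a TSS, and each had 3 to 5 peaks.

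Among the L-type pores, which couple depolarisation to transcription in neurons and to contraction in muscle, Cacna1c, Cacna1d and Cacna1f had a peak and Cacna1s, the skeletal muscle form, had none. The nearest peak to Cacna1s was 8787 bp past the 3′ end of its gene body. It was 11353 bp from the nearest of its 6 starts, an internal one, and so just outside the 10-kb limit. Cacna1c had 4 peaks, of which 1 was within 2 kb of its own starts (chr6:119107293-119107545, 556 bp downstream in intron 1, IDR 0.000590, 23 CpGs). A further Cacna1c peak in intron 1 (chr6:119175202-119175465, IDR 0.00122) lay 46 bp from the TSS of Dcp1b, a decapping cofactor gene. A pair in intron 3, with centres 5.36 kb apart, had IDRs of 0.00125 and 0.0110 and 1 CpG each. Both Cacna1d peaks lay in its intron 1. The one with the lower IDR (chr14:30479550-30479734, 4.21e-08, rank 330) was 11514 bp from the nearest Cacna1d start and 7 bp from the TSS of Dcp1a, and its motif word lay 8 bp from the peak centre. The second (chr14:30457545-30457794, IDR 1.66e-06) held no motif. For Cacna1f, best known from photoreceptors, the only peak (chrX:7638535-7638787, IDR 2.29e-06) lay 3465 bp past the gene and 23 bp from the TSS of Syp, the gene of the synaptic vesicle protein synaptophysin. In Cacna1d and Cacna1f the peak with the lowest IDR thus coincided with the promoter of a neighbouring gene, and which gene, if any, such a peak acts on cannot be told from a peak list.

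The T-type pores open near the resting potential and support burst firing. Cacna1h had 4 peaks, 2 of them at its promoter with centres 1030 bp apart. The upstream one (chr17:25434052-25434416, 365 bp) had an IDR of 2.06e-08, rank 129, lay 451 bp upstream of the TSS and held 44 CpGs. It carried both forms of the motif, GCGGGGGCG 82 bp to one side of its centre and GCGTGGGCG 107 bp to the other, and the latter was the only GCGTGGGCG in any member peak. The second promoter peak (chr17:25433072-25433335, IDR 1.32e-05) was centred in the 5′ UTR, with 1 motif word. It lay 74 bp downstream of an internal start and 0.579 kb from the 5′ end of the gene. The 2 intronic Cacna1h peaks had IDRs of 0.000549 and 0.00161 and no motif. Cacna1g and Cacna1i had intronic peaks only. That of Cacna1g (chr11:94455533-94455795, IDR 2.21e-05) was in intron 9, and those of Cacna1i were in intron 4 (chr15:80334803-80335056, IDR 8.98e-06) and intron 10 (IDR 0.000641), 47396 and 24736 bp from the nearest start.

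**Figure D2:**
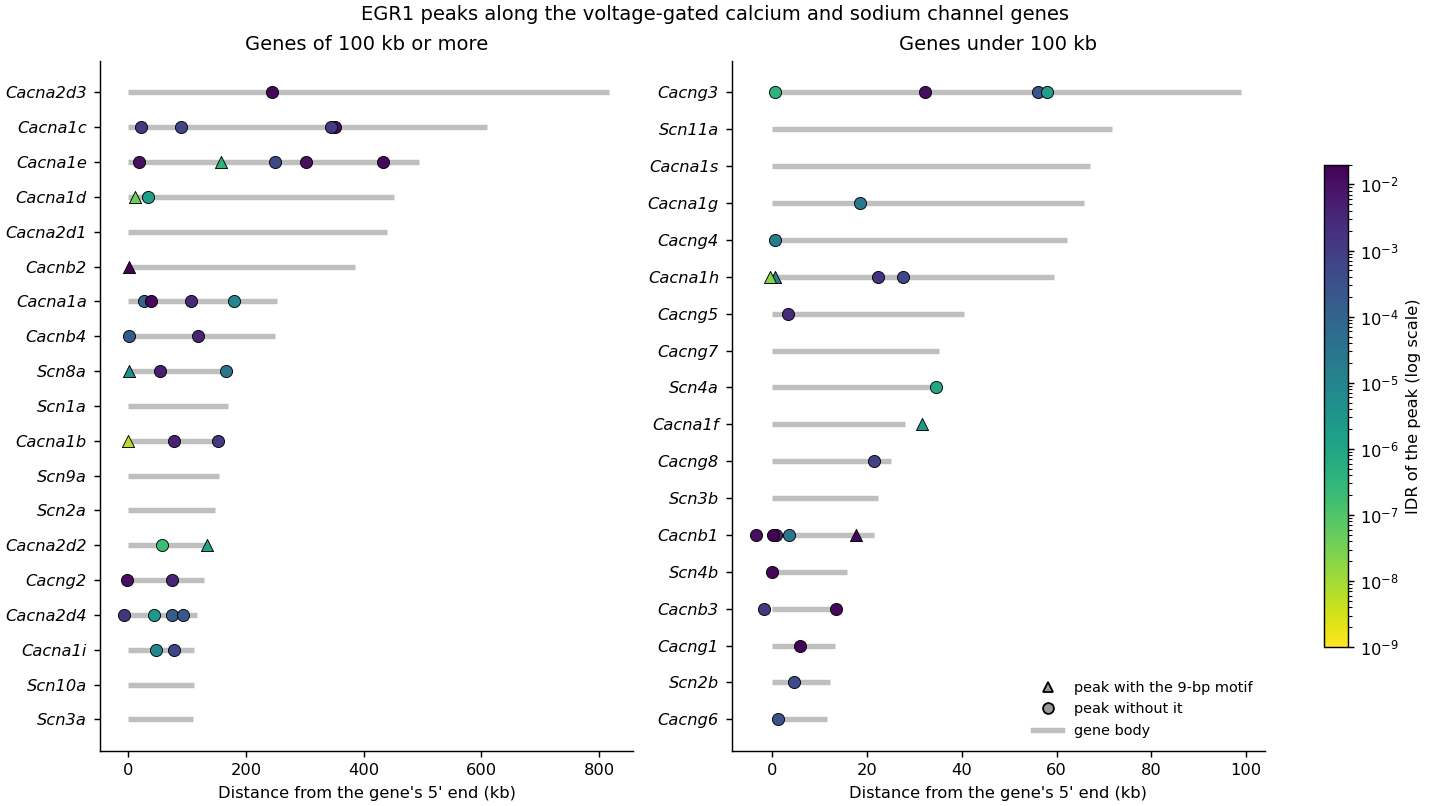
Position of the 60 EGR1 peaks (markers) along the 37 genes (grey bars, drawn to scale from the 5′ end, in kb), with genes of 100 kb or more on the left and shorter genes on the right. Colour gives the IDR on a log scale and triangles mark the 10 peaks with an exact 9-bp motif. Scn1a, Scn2a, Scn3a, Scn9a, Scn10a and Scn11a have bars with no marker, while Cacna1e and Cacnb1 have 5 markers each.

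Sodium channel pores had a peak in 2 of 8 cases (25%, 7.15 to 59.1%), Scn8a and Scn4a. Scn8a encodes a pore of the axon initial segment and nodes of Ranvier. Its promoter peak (chr15:100870487-100870644, 158 bp) had an IDR of 4.45e-06, lay 79 bp upstream of an internal TSS, in intron 1 of longer transcripts, and had 22 CpGs, a GC content of 76.6% and 1 motif word, 8 bp from the peak centre. Its other peaks, in introns 9848 and 19844 bp from the nearest start, had IDRs of 0.00472 and 2.81e-05. In Scn4a, the skeletal muscle pore, the only peak (chr11:106318530-106318780, IDR 9.10e-07) lay in the 3′ UTR. It was 30734 bp from the nearest Scn4a TSS and 3893 bp from that of Cd79b, a B-cell receptor gene, and held no word within 1 mismatch of the motif.

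Scn1a, Scn2a and Scn3a, the other sodium channel pores of the brain, had no peak. They lie in 1 cluster on chromosome 2 together with Scn9a, the pore of peripheral sensory neurons, over a span of 1178 kb (chr2:65457118-66634962). Only 2 peaks lay in that span. One was 81 bp from the TSS of Ttc21b, a ciliary transport gene, with an IDR of 2.47e-07 (chr2:66256573-66256822), 14.1 kb from the end of the Scn1a gene body and 61.2 kb from its nearest TSS. The other was 20018 bp from the nearest TSS, that of Csrnp3, with an IDR of 0.0114. The bodies of Scn2a, Scn3a and Scn9a were 202, 218 and 223 kb from the nearest peak. Scn10a and Scn11a, the tetrodotoxin-resistant pores of sensory neurons, also had none, at 29.1 and 62.2 kb from the nearest peak.

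The pore genes of the 2 families were of similar length, with medians of 135.2 kb for calcium and 128.8 kb for sodium channels. Over 100 kb, 6 of 6 calcium channel pores and 1 of 6 sodium channel pores had a peak, with median lengths of 351.7 and 150.8 kb in that class. The density was 1.06 peaks per 100 kb of searched region at calcium channel pores, 0.379 per 100 kb at sodium channel pores and 0.993 at other protein-coding genes of all lengths. Over 100 kb it was 0.927 at calcium channel pores, 0.323 at sodium channel pores and 0.460 at other genes. At 20 to 100 kb, with 4 calcium and 2 sodium channel pores, it was 2.10, 0.791 and 1.21. When each peak was given only to the gene with the nearest TSS, 7 of 10 calcium and 1 of 8 sodium channel pores kept a peak.

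All 4 genes for calcium channel β subunits, cytoplasmic proteins that bring the pore to the membrane, had a peak, and all 4 had one within 2 kb of a TSS. Cacnb1 had 5 peaks in a searched region of 31.5 kb, or 15.9 per 100 kb, the highest density among the members. Of these, 3 were near a start. The lowest IDR was 2.57e-05, in intron 2 and 1039 bp upstream of an internal start (chr11:98019279-98019542), and the others lay 508 bp downstream (chr11:98021994-98022243, IDR 0.00345) and 150 bp downstream (chr11:98022752-98023015, IDR 0.0180) of a start. Upstream of the gene, 1 peak with an IDR of 0.0108 lay 234 bp from the TSS of the ribosomal protein gene Rpl19. The remaining Cacnb1 peak (chr11:98005286-98005535, IDR 0.0136) held a motif word in an intron.

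In the other β subunit genes the promoter peaks varied in IDR. Cacnb4 had a peak in the 5′ UTR, 188 bp from a start (chr2:52676239-52676422, IDR 0.000164, GC 76.6%, 24 CpGs), and another 338 bp from the start of a shorter transcript (chr2:52558097-52558346, IDR 0.00371). Cacnb2 had a single peak (chr2:14604452-14604701), 271 bp downstream of a start in a noncoding exon. It held 25 CpGs and 1 motif word, yet its IDR of 0.0195 was the highest of the 60. Cacnb3 had a peak 1665 bp upstream of its TSS (chr15:98629050-98629299, IDR 0.00123) and one in its 3′ UTR (IDR 0.0138). The median IDR over the 10 β subunit peaks was 0.00724, against 0.000234 over peaks at other protein-coding genes.

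The α2δ subunits are extracellular proteins that raise the number of channels at the membrane. Cacna2d1 had no peak, the nearest being 19.5 kb away. Cacna2d2 had a peak in intron 2 with an IDR of 2.05e-07 (chr9:107456810-107456997, 48700 bp from a start) and one 7364 bp from its nearest start with an IDR of 1.18e-06 (chr9:107533889-107534152), which lay past the gene, 76 bp from the TSS of Tmem115, and held a motif word. Cacna2d3, at 817 kb the longest member, had 1 peak (IDR 0.0148), 117771 bp from a start. Cacna2d4 had 4 peaks. The lowest IDR there, 2.58e-06, was in intron 15 or 16 (chr6:119280753-119281002), and the 1 peak near a Cacna2d4 start, 1362 bp upstream of it (chr6:119329282-119329531, IDR 0.000205), lay 203 bp from the TSS of Lrtm2, a gene inside Cacna2d4.

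Of the γ subunit genes 7 of 8 had a peak, and none of their 11 peaks held the motif. The γ subunits include 6 TARPs, which carry AMPA receptors to the synapse, and of these Cacng7 had no peak (28.5 kb to the nearest). Cacng3 had 4 peaks. Its promoter peak (chr7:122670952-122671201, IDR 3.81e-07) was centred in the 5′ UTR, 314 bp upstream of a TSS, with 15 CpGs and 2 words that differ from the motif at 1 base. A pair in its intron 1 had centres 1766 bp apart, with IDRs of 1.65e-06 (chr7:122728303-122728453, 151 bp) and 0.000261, and 2 CpGs each. Cacng4 had a peak 672 bp downstream of its TSS (chr11:107793753-107794016, IDR 1.93e-05, 26 CpGs). Cacng5 had one 273 bp upstream of an internal start (chr11:107911503-107911766, IDR 0.00248), and Cacng2, or stargazin, one 1492 bp upstream (chr15:78121388-78121651, IDR 0.0108) and one in intron 1 (IDR 0.00381). The Cacng8 peak (IDR 0.000771) lay 17801 bp from the nearest Cacng8 start and 11976 bp from that of Cacng6. Cacng1 and Cacng6, the muscle forms, had a peak each, at 5946 bp (IDR 0.0170) and 674 bp (chr7:3425209-3425462, IDR 0.000295) from a start.

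Sodium channel β subunits are cell-adhesion proteins that tune the gating of the pore. Scn2b had a peak in intron 1 (chr9:45122209-45122472, IDR 0.000470), 4460 bp from the nearest Scn2b TSS, and its sequence above holds no motif. Scn4b had one 95 bp upstream of its TSS (chr9:45138168-45138431, IDR 0.0170, 24 CpGs). Scn3b had none, with the nearest peak 159 kb away. Over all 37 genes, the 8 best known outside the cortex (Cacna1f, Cacna1s, Cacng1, Cacng6, Scn4a, Scn9a, Scn10a and Scn11a) had a peak in 4 cases (50%, 21.5 to 78.5%) and the other 29 in 23 cases (79.3%, 61.6 to 90.2%), intervals that overlap.

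The number of peaks per gene ran from 0 to 5. There were 10 genes with none, 12 with 1, 6 with 2, 2 with 3, 5 with 4 and 2 with 5. At least 2 peaks were found at 15 members (40.5%) and at 13.7% of other protein-coding genes, and at least 4 at 7 members (18.9%) and 1.81% of other genes, without adjustment for gene length. Of the 60 peaks, 51 were inside a gene body, 7 upstream and 2 downstream. Introns held 45 of the centres (75%), and 22 of the 60 (36.7%) were in intron 1, whereas over the other genes introns held 36.0% and intron 1 held 21.8%. These shares were not adjusted for gene length either. A longer gene can have more intron in its searched region, and whether this bears on the shares was not tested. No member peak was centred in a coding exon.

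By the median, member peaks lay further from starts than the peaks of other genes. The median distance to the nearest own TSS was 7252 bp for the members (14338.5 bp for pores and 3951 bp for auxiliary subunits) and 618 bp for other protein-coding genes, where a peak counted once for each gene it was assigned to. Within 2 kb lay 22 of 60 member peaks (36.7%, 25.6 to 49.3%) and, by the same count, 59.8% at other genes (58.9 to 60.6%). Among genes over 100 kb the shares were 31.4% at members (18.6 to 48.0%) and 46.4% at other genes (44.6 to 48.1%), intervals that overlap. For 12 of the 60 peaks the nearest TSS belonged to another gene, and 6 of these were within 500 bp of it (at Dcp1b, Dcp1a, Syp, Tmem115, Lrtm2 and Rpl19). Cacna1d, Cacna1f, Cacng8 and Scn4a had only peaks of this kind, so 23 of 37 members had a peak that was nearest to their own TSS (62.2%), against 31.3% of other genes by the same count.

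The IDRs of the member peaks spanned 5.71e-09 to 0.0195, with a median of 0.000616 (quartiles 1.21e-05 and 0.00601), compared with 0.000234 (1.45e-06 and 0.00347) for peaks at other protein-coding genes. With each peak given only to the gene with the nearest TSS, the medians were 0.00123 and 0.000222, and with peaks at an IDR of 0.01 or less they were 0.000185 and 9.95e-05. For genes over 100 kb the medians were close, 0.000641 at members and 0.000553 at other genes. At 20 to 100 kb they were 0.000261 and 0.000133, and under 20 kb 0.00753 and 0.000124. Only 3 member peaks, at Cacna1b, Cacna1h and Cacna1d, were in the 10% of the list with the lowest IDR, and 26 of 60 were in the lower 50%. Near a start, the pore genes had 8 peaks with a median IDR of 8.83e-06, and the auxiliary genes had 14 with a median of 0.00185, while the median for other genes there, over pairs of a gene and a peak, was 7.47e-05. Beyond 2 kb the values were 0.000929 for pores, 0.00113 for auxiliary subunits and 0.000559 for other genes. Among genes over 100 kb the median beyond 2 kb was 0.00122 at members and 0.00124 at other genes. The gap between pore and auxiliary peaks was thus wider near a start than beyond it, over 8 and 14 peaks and without a test.

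**Figure D3:**
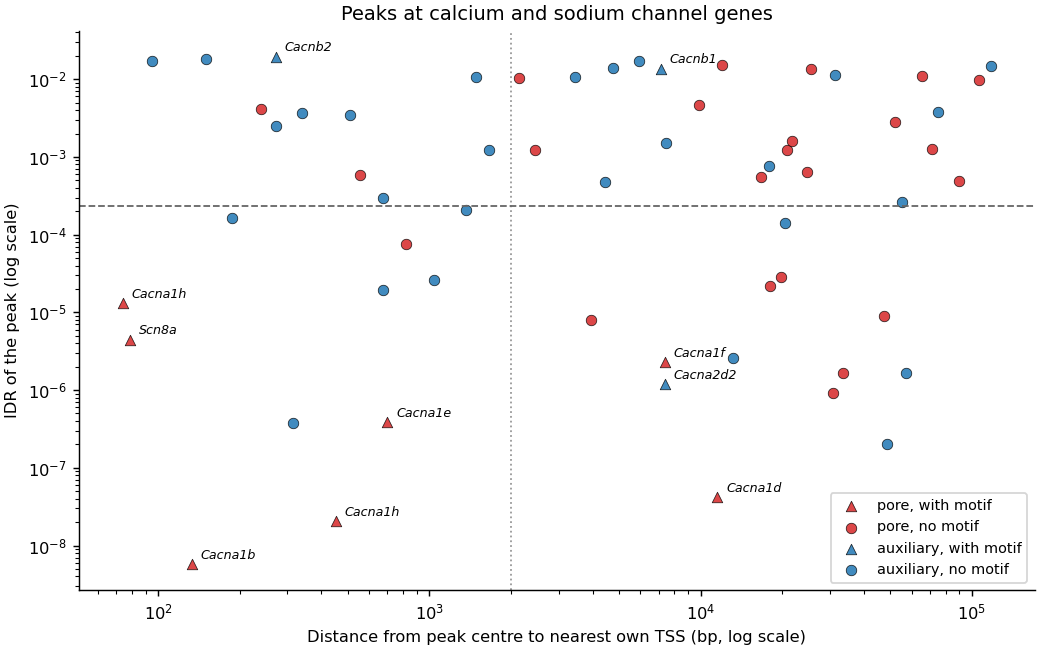
IDR of each of the 60 member peaks (y, log scale) against the distance of its centre from the nearest TSS of the gene (x, bp, log scale), red for pore and blue for auxiliary subunits, with triangles for peaks that hold an exact motif. The dashed line is the median IDR at other protein-coding genes of all lengths (0.000234) and the dotted line marks 2 kb. The red triangles lie below the dashed line, whereas the blue triangles of Cacnb1 and Cacnb2 lie above it.

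An exact motif word was found in 10 of the 60 member peaks (16.7%, 9.31 to 28.0%), against 18.2% of the 10040 peaks at other protein-coding genes, so the share was close to the background. It was in 7 of 30 pore peaks (23.3%, 11.8 to 40.9%) and 3 of 30 auxiliary peaks (10.0%, 3.46 to 25.6%). Near a start it was in 5 of 8 pore peaks (Cacna1b, Cacna1e, both Cacna1h peaks and Scn8a) and 1 of 14 auxiliary peaks (Cacnb2), and in 22.3% of gene and peak pairs at other genes. Of the 12 words in these 10 peaks, searched on both strands, 11 were GCGGGGGCG and 1 was GCGTGGGCG. The centres of the words lay a median of 26 bp and at most 107 bp from the peak centre. With 1 mismatch allowed, 56.7% of member peaks and 73.5% of peaks at other genes held a word.

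The base composition of the peaks differed by position. The median GC content was 57.0% over member peaks and 62.4% over peaks at other genes. The median CpG ratio, observed over expected, was 0.297 and 0.663. Over 100 kb the median GC content was 58.8% at members and 57.1% at other genes, with CpG ratios of 0.293 and 0.474. At 20 to 100 kb the GC medians were 59.3% and 63.4%, and the ratios 0.397 and 0.698. Under 20 kb they were 55.1% and 64.0%, and 0.251 and 0.738. Within 2 kb of a start the CpG ratio was 0.779 for pore peaks and 0.458 for auxiliary peaks, with 0.773 for other genes by gene and peak pairs. Beyond 2 kb it was 0.255 for pores, 0.261 for auxiliary subunits and 0.434 for other genes of all lengths. Among genes over 100 kb the ratio beyond 2 kb was 0.264 at members and 0.292 at other genes, so it was close in that length class. The exception among the pore promoter peaks was Cacna1b at an internal start, at 0.221. Among the auxiliary promoter peaks, those of Cacnb2, Cacng4 and Scn4b and the 5′ UTR peak of Cacnb4 had ratios between 0.803 and 0.947. The peak at the shorter Cacnb4 transcript had 0.216. Those of Cacng2, Cacng6 and Cacna2d4 and the Cacnb1 peak in intron 2 were between 0.115 and 0.177. The rest ranged from 0.307 to 0.634.

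**Figure D4:**
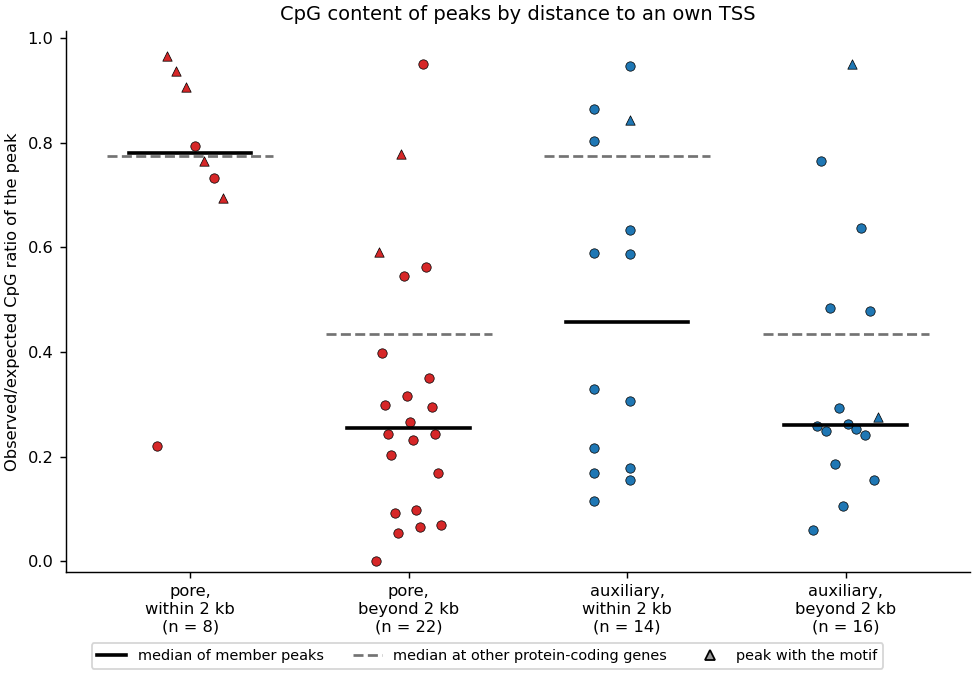
Observed/expected CpG ratio of each member peak (y), split into pore and auxiliary subunit genes and into peaks within or beyond 2 kb of an own TSS. Black lines are medians of member peaks, dashed grey lines are medians over gene and peak pairs at other protein-coding genes, and triangles are peaks with an exact motif. The dashed lines cover genes of all lengths. Peaks beyond 2 kb have medians of 0.255 and 0.261, and the near ones 0.779 for pores and 0.458 for auxiliary subunits.

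Promoters from RefSeq (GRCm38.p6, 250 bases before to 50 after the start) were matched for 29 of the 37 genes, giving 40 windows. No window was matched for Cacna1a, Cacna1g, Cacna1h, Cacna2d4, Cacng1, Cacng4, Scn3a and Scn3b. The promoter peaks of Cacna1h and their motif words are therefore not in the counts below. A peak overlapped 6 of the 40 (15.0%), and 18.5% of the 20110 windows of other protein-coding genes. A motif word was in 4 windows (10.0%), those of Cacna1b, Cacna2d1, Cacna2d2 and Scn8a, and in 4.80% of the windows of other genes. In Cacna1b and Scn8a the window also overlapped a peak, whereas the windows of Cacna2d1 and Cacna2d2 held the word and overlapped no peak. The median CpG ratio of the windows was 0.420 for calcium and 0.368 for sodium channel pores (7 genes each), with 0.588 for other genes. Scn1a (0.305) and Scn9a (0.366) were below that value, Scn2a had 2 windows at 0.368 and 0.529, and Scn8a had 2 at 1.05 and 0.563.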

How the data were processed

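Anti-EGR1 ChIP-seq of mouse frontal cortex was analysed from 1 deposited peak list. Per the study's methods, the authors trimmed the reads, aligned these by Bowtie to mm10, used SPP to call peaks in each of 2 replicates, kept peaks at an IDR of 2% and merged them; the submitters' processing notes name cutadapt 11.2, Bowtie2 2.2.9 and bedtools 2.26.0. The deposited value of a peak is its IDR, a reproducibility value on the scale of a q-value. The list gives no counts, so the depth of each sample is unknown.

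Here, positions were read as zero-based BED intervals (the convention is not given in the sources used here) and printed 1-based. Of 12014 peaks, 76 on scaffolds were left out. Peak centres were joined to GENCODE M21 protein-coding genes on assembled chromosomes, all 37 members matching 1 gene each, using the TSSs of all transcripts. A peak could count for several genes. Sequence came from GRCm38.p6, the assembly of mm10, and promoters from RefSeq. The CpG ratio is CpGs observed over CpGs that the C and G content would give. Peaks described in full were those within 2 kb of a TSS and the 10 others with the lowest IDR; further peaks were added where they complete a gene. The members and lists were chosen with earlier results of these data known. With 1 list there was no test. The assignment was tested on simulated positions with known answers. Python 3.11.15, numpy 2.4.6, scipy 1.17.1 and matplotlib 3.10.9 were used.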

Additional observations from a re-analysis of the deposited data

How the results depend on the processing

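The main results were recomputed under other settings of assignment, transcripts, IDR limit, motif and chromosomes, which gave 58 pairs of a result and a setting. Of these alternatives, 40 kept a value within its interval (or a count within 1.5 times) and 18 moved it. The share of members with a peak was 56.8% with TSSs at 10 kb only, 45.9% at 2 kb only and 54.1% at an IDR of 0.001 or less. The share of pore genes fell to 33.3% at 2 kb only, and that of auxiliary genes to 57.9% at 2 kb only and 47.4% at an IDR of 0.001. The share of other protein-coding genes was 35.9% at 5 kb, 37.2% at 10 kb without the gene body, 23.8% with the body only, 29.6% at 2 kb only, 31.3% by nearest TSS, 38.3% with GENCODE basic transcripts, 36.98% at an IDR of 0.01 and 28.9% at 0.001. The number of member peaks was 34 at 10 kb without the body, 22 at 2 kb only and 32 at an IDR of 0.001. The motif share was 56.7% with 1 mismatch. The 7 genes lost at an IDR of 0.001 were all auxiliary (Cacna2d3, Cacnb2, Cacnb3, Cacng1, Cacng2, Cacng5 and Scn4b), while 11 of 18 pore genes kept a peak, so that the order of the auxiliary and pore shares turned. The median IDR of member peaks was 0.00123 by nearest TSS and 0.000185 at an IDR of 0.01. The cause of these shifts was not tested beyond what each alternative removes by construction. No paired analysis was possible because the replicates were merged into 1 list, and for the same reason no replicate could be left out. A gene without a peak may be bound below the IDR threshold, and no value here gives that limit.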

Other observations

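Genes whose products act on or beside these channels were read in the same way, from a list of 26 chosen with earlier results of these data known. A peak was found at 20 of the 26 (76.9%, Wilson interval 58.0 to 89.0%), and at 65.4% within 2 kb of a TSS, against 39.5% and 29.6% of the protein-coding genes outside the channel members. The median length of the 26 was 110.1 kb, with a range from 3.258 kb (Rrad) to 699.2 kb (Fgf14). Of the protein-coding genes outside the channel members that are over 100 kb, 61.5% had a peak, 43.3% within 2 kb. That class covers only part of the 26, so the shares are not of like sets. The membrane scaffold genes Sptbn4, Ank2 and Ank3 all had peaks. Sptbn4, which encodes a spectrin of the axon initial segment, had 5 with a lowest IDR of 1.16e-08, Ank2 had 4 with a lowest IDR of 2.05e-06, and Ank3, the ankyrin that binds sodium channels there, had 4 with a lowest IDR of 8.23e-06, none of them within 2 kb of a start. The genes of intracellular FGF-like channel binders, Fgf11, Fgf12, Fgf13 and Fgf14, had 2 or 3 peaks each. Rims1, which tethers calcium channels to the release site, had 1 peak with an IDR of 6.09e-08. Cabp1, Stac, Rem1, Rem2, Rrad and Nalcn had none, while Gem, which belongs to the same small GTPase family as Rem1, Rem2 and Rrad, had 1 with an IDR of 0.00407.

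Potassium channel genes, the 94 protein-coding genes with symbols that start with Kcn, had a peak in 59 cases (62.8%, 52.7 to 71.9%), with 46.8% within 2 kb of a TSS, against the same 39.5% and 29.6%. Their median length was 30.8 kb. Under 20 kb, at 20 to 100 kb and over 100 kb, 52.6, 63.6 and 78.3% of them had a peak. In these classes the shares were 100, 69.2 and 68.4% for the calcium and sodium channel genes and 31.3, 45.2 and 61.5% for other protein-coding genes. The 122 peaks at potassium channel genes had a median IDR of 0.000163, and 19.7% held an exact motif, close to the 18.2% of peaks at other genes. None of these differences from the calcium and sodium channel genes was tested.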
